A study of Mus musculus with 26 samples.

Results

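Auditory cluster 1 (Aud_1 in the authors' cell table) is a set of thalamic neurons that carried a retrograde label from the auditory system and that the authors' clustering put together. Its members were the rows of that cell table with this cluster name, which were 101 of the 380 auditory cells and of the 1972 cells of the series. They came from 5 mice, numbered here in the order of their identifiers, which gave 6, 12, 31, 40 and 12 of these cells. The series labelled neurons of the mouse thalamus from 5 cortical systems (auditory, motor, prefrontal, somatosensory and visual), and a retrograde label enters at nerve endings and travels to the soma. Fluorescent neurons were sorted by hand from slices kept in blockers of neural activity, per the labels' protocols, and read as 3′ ends of transcripts with unique molecular identifiers (UMIs), so that reads copied from the same captured molecule counted once. Auditory mice 1 and 2 were 104 days old and in sequencing batch 1, mice 3 and 4 were 81 days old and in batch 2, and mouse 5 was 70 days old and in batch 3. All mice were male, and the agent, the injection site, the strain and any genotype are not given in the sources used here. The cells compared with them were the 212 cells of auditory cluster 2 (Aud_2) and the 63 of auditory cluster 3 (Aud_3) from the same 5 mice. Further comparisons used Tnnt1-rich clusters of other systems, which were motor cluster 2 (mice of 69 to 112 days), somatosensory cluster 1 (64 to 78 days) and visual cluster 1 (69 to 104 days). Another grouped the motor, prefrontal, somatosensory and visual cells by whichever of the genes Tnnt1, Necab1 and Calb2 they held most of. The prefrontal mice were 70 to 91 days old.

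Thalamic relay neurons are excitatory cells that pass sensory and motor signals to the cortex, and most release glutamate loaded by the transporter Slc17a6. The nuclei differ in how their neurons fire and where their axons end, and genes such as Tnnt1 (slow skeletal troponin T), Necab1 (a calcium-binding protein) and Calb2 (calretinin, also calcium-binding) are used to tell them apart. Relay cells switch between burst firing, which rests on T-type calcium channels, and sustained firing, whose speed depends on Kv1 and Kv3 potassium channels.

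An Aud_1 cell held 21719 to 391991 UMIs (median 68150) and a median of 4709 genes, beside medians of 84322 UMIs in Aud_2 and 77991 in Aud_3. Summed over the cells of a mouse, Aud_1 held 664161 to 2571698 UMIs, and levels are given as counts per 1e6 UMIs of such a sum (CPM). Aud_1 cells lay on 22 of the 26 plates. Of 375 cell barcodes 372 were used on more than 1 plate, and no 2 cells had the same counts. Age, sort day and sequencing batch moved together over the auditory mice and cannot be told apart. The identifier of auditory mouse 5 was also carried by visual cells (visual mouse 1), with an age of 91 days in place of 70, so the cells of a mouse were summed within a system, and the comparison of relay clusters below treats these sums as separate animals.

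The label held for Tnnt1 and Prkcd, and only in part for Nefm. Tnnt1 (chr7:4504570-4516382, minus strand, GRCm38) was measured at 339.7, 749.9, 675, 614 and 751 CPM in mice 1 to 5. It lay at 87.3 to 210.0 CPM in Aud_2 and at 1.87 to 12.7 CPM in Aud_3, so that every Aud_1 sum was above every other sum. Prkcd (chr14:30595354-30626210, minus strand), which encodes protein kinase C delta, reached 1442, 1522, 1628, 2171 and 1394 CPM, against 274 to 553 CPM in Aud_2 and 5.61 to 148 CPM in Aud_3. Nefm (chr14:68082590-68124846, minus strand), the medium neurofilament chain that stiffens large axons, was at 487, 898, 696, 831 and 727 CPM in Aud_1 and at 137 to 363 CPM in Aud_2. In Aud_3 it was at 559 to 1249 CPM, which overlapped with Aud_1, and the log2 fold between these clusters was -0.14 ± 0.26 (SE). Nefm thus set Aud_1 apart from Aud_2 and not from Aud_3. Calb2 ran the other way, at 152, 416, 121, 47.8 and 176 CPM in Aud_1, 562 to 1552 CPM in Aud_2 and 1602 to 2808 CPM in Aud_3, with no overlap between Aud_1 and the other clusters. Necab1 was at 182, 136, 121, 60.7 and 187 CPM in Aud_1, below both other clusters of the same mouse in all 5 mice. Since the clusters were made from these counts, such differences describe the clusters and are given with no test.

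**Figure D1:**
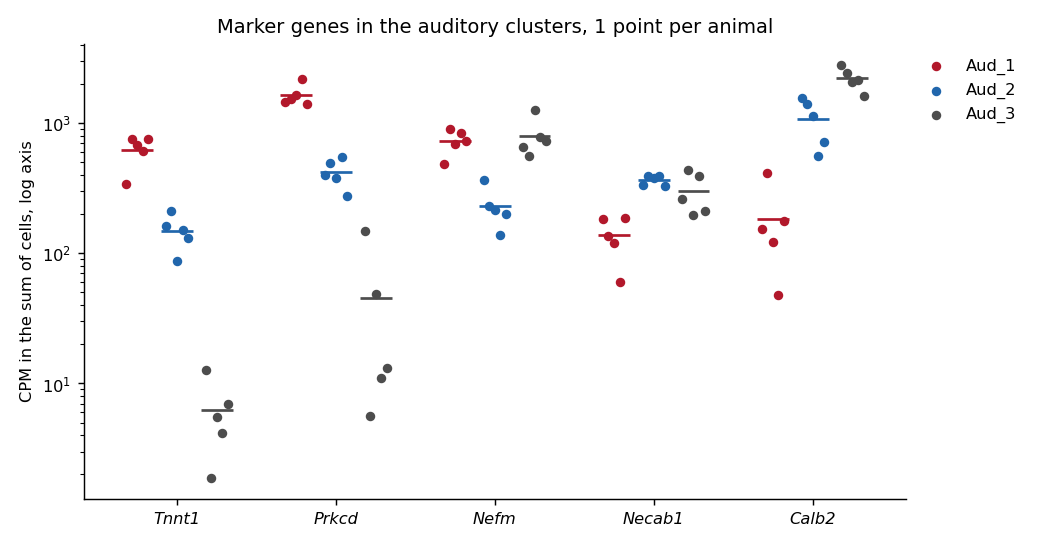
CPM (log axis) of 5 marker genes in the sums of Aud_1, Aud_2 and Aud_3 cells, with 1 point per mouse and a bar at the mean of 5 mice. Tnnt1 and Prkcd are highest in Aud_1 in every mouse, Nefm overlaps between Aud_1 and Aud_3, and Calb2 is lowest in Aud_1.

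General markers of thalamic projection neurons were present throughout Aud_1. Slc17a6 was detected in 101 of 101 cells, and Tcf7l2, a transcription factor of thalamic neurons, averaged 1069 ± 100 CPM (SD, n = 5). Defining genes of inhibitory neurons were at or near 0, since Gad2 and Slc32a1 had no UMI in any Aud_1 cell and Gad1 had 1. No UMI in 101 cells of this cluster was found for Cx3cr1 (microglia) or Rgs5 (mural cells) either. Summed over their lists, astrocyte markers took 184 to 386 CPM in Aud_1, 205 to 284 CPM in Aud_2 and 170.1 to 411 CPM in Aud_3, with 5 of 10 at 0 in Aud_1. Oligodendrocyte markers took 13.6 to 48.0 CPM in Aud_1, 24.6 to 89.5 CPM in Aud_2 and 40.8 to 135 CPM in Aud_3, with 4 of 10 at 0 in Aud_1. Microglial markers took 142 to 234 CPM in Aud_1, 115 to 182 CPM in Aud_2 and 191 to 236 CPM in Aud_3, with 6 of 10 at 0 in Aud_1. Endothelial and mural markers took 1.20 to 27.9 CPM in Aud_1, 1.48 to 5.82 CPM in Aud_2 and 0 to 4.68 CPM in Aud_3, with 5 of 10 at 0 in Aud_1. GABA neuron markers took 0 to 39.1 CPM in Aud_1, 32 to 117 CPM in Aud_2 and 73.9 to 258 CPM in Aud_3, with 5 of 10 at 0 in Aud_1. The glial and vascular ranges of Aud_1 overlapped with those of both other clusters, and the GABA neuron range lay below that of Aud_3 and overlapped with that of Aud_2.

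Single Aud_1 cells were uniform in Tnnt1 and Prkcd and mixed in Calb2 and Necab1. Tnnt1 was found in 99 of 101 cells (98.0%), with a median of 535 CPM and quartiles of 260.2 and 855 CPM. In Aud_2 it was found in 65.6% of cells and in Aud_3 in 15.9%. When every cell was thinned to 20000 UMIs, a depth that every auditory cell reached, the expected shares were 95%, 52.9% and 6.80%. Prkcd was found in 100 of the 101 Aud_1 cells. Calb2, by contrast, was detected in 49 Aud_1 cells (48.5%), with a median of 0 and a highest cell of 2585 CPM, against 97.2% of Aud_2 cells. After thinning the shares for Calb2 were 37.6% and 95.1%. Necab1 was detected in 47 Aud_1 cells, which is 46.5%, and in 90.6% of Aud_2 cells.

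Each cell was also assigned to whichever of Tnnt1, Necab1 and Calb2 it held most of. Tnnt1 led in 75 of the 101 Aud_1 cells (74.3%), Calb2 in 15, Necab1 in 10, and 1 cell had no leading gene. By mouse, the share led by Tnnt1 was 66.7%, 66.7%, 74.2%, 75% and 83.3%. In Aud_2 it was 7.55% and in Aud_3 0 of 63 cells, which allows a share of up to 4.76%. In the authors' second clustering, made over all systems, 87 of the 101 Aud_1 cells (86.1%) fell in joint cluster 5, which also took 201 of 212 Aud_2 cells and held 42 cells of other systems. The other 14 Aud_1 cells were spread over joint clusters 1 (7 cells), 2 (1), 3 (3), 4 (2) and 7 (1), which consisted mainly of cells of other systems. These 14 cells came from mice 2 to 5, with 2, 2, 7 and 3 cells. Aud_3 stood apart, with 60 of 63 cells in joint cluster 8.

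The share of auditory cells that fell in Aud_1 differed widely between mice. It was 8.22% in mouse 1 (95% exact Clopper-Pearson interval 3.08 to 17.0%), 15.8% in mouse 2 (8.43 to 26.0%) and 16.4% in mouse 5 (8.79 to 27%). Mice 3 and 4 gave 36.9% (26.6 to 48.1%) and 54.1% (42.1 to 65.7%). The 2 high mice were those of batch 2, which shared a sort day and an age, so these cannot be told apart. The intervals cover counting error only, and because cells were picked by hand the share describes the collection and not the tissue. RNA content was judged from spike-in RNAs, which were added to each cell's lysate. Aud_1 cells held a median of 9.73, 12.2, 9.63, 11.7 and 7.81 gene UMIs per spike-in UMI in mice 1 to 5, and the other auditory cells 8.66, 10.4, 9.10, 11.2 and 8.63. Aud_1 was higher in 4 of 5 mice and lower in mouse 5, by a mean log2 ratio of 0.08 ± 0.14 (SD, n = 5). The difference was within the spread between mice (2-sided exact sign-flip permutation test, p = 0.3125, where the smallest p that 5 mice allow is 0.0625). Against Aud_2 alone the mean log2 ratio was 0.155, and against Aud_3 alone it was -0.04. The latter mean joins opposite directions, since Aud_3 cells held medians of 7.51, 8.85, 13.7, 14.5 and 9.22 in mice 1 to 5. Aud_1 was thus above Aud_3 in mice 1 and 2 and below it in mice 3 to 5.

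**Figure D2:**
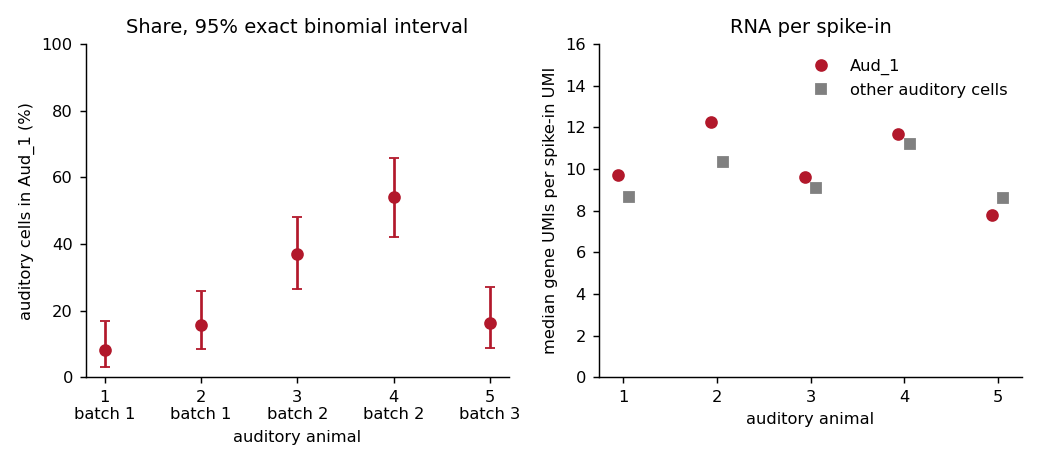
Left, percent of the auditory cells of each mouse that fell in Aud_1, with 95% exact binomial intervals. Right, the median of gene UMIs per spike-in UMI in Aud_1 cells (circles) and in all other auditory cells (squares) of the same mouse; the share is highest in the mice of batch 2, and the ratios of the 2 sets of cells lie close together.

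Across 12368 genes, 157 were higher in Aud_1 (1.27%) and 225 lower (1.82%) than in both other auditory clusters. A gene was called when its fold against the mean of Aud_2 and Aud_3 was at least 2 and its CPM lay beyond both clusters in each of the 5 mice. This rule describes the clusters, gives no p-value and controls no rate of false calls, so a single called gene of low level is weak evidence. The median log2 fold over all genes was -0.05. Among the called genes, Aud_2 mostly lay between the other clusters: its mean CPM was above that of Aud_3 for 150 of the 157 higher genes (95.5%), and Aud_3 was above Aud_2 for 190 of the 225 lower ones, while 55.3% of the genes not called had Aud_2 above Aud_3. The largest fold up was that of Slc9a3r1, a scaffold that ties membrane transporters to the cell cortex. It was at 76.8, 173, 109, 269 and 382 CPM in Aud_1, at 15.1 to 35.0 CPM in Aud_2 and at 0 to 0.628 CPM in Aud_3, without overlap (log2 fold 6.29 ± 0.45, SE). Tnnt1 itself had a log2 fold of 4.34 ± 0.27 and Prkcd one of 3.73 ± 0.39. Smpx, a small protein best known from muscle, was at 34.8, 13.4, 5.59, 43.2 and 33.1 CPM against at most 5.40 CPM in any other auditory sum. Osbpl3, an oxysterol-binding protein, averaged 94.8 ± 18 CPM (SD, n = 5) against 28.5 and 1.91 CPM in Aud_2 and Aud_3. The orphan receptor Gprc5b averaged 44.5 ± 19.9 CPM, with a log2 fold of 3.58 ± 0.74. Of the matrix genes, the laminin chain Lama5 was at 25.6 ± 5.2 CPM, against 10.2 CPM in Aud_2. Its log2 fold of 5.58 ± 1.06 takes in Aud_3, which had no UMI. The Aud_1 and Aud_2 ranges of Lama5 (16.9 to 30.1 and 0.985 to 21.3 CPM) overlapped. Tnc, tenascin C, was called higher as well. The transcription factor Sox3 was at 17.9 ± 9.87 CPM (0 to 12.4 CPM in Aud_2) and the secreted protein Fstl1 at 35.2 ± 17.7 CPM (1.86 to 27.5 CPM in Aud_2). Both overlapped between Aud_1 and Aud_2. Akain1, Shb, Car2, Mettl25 and Rcsd1 completed the 15 largest folds up, with means of 13.2 to 34.9 CPM in Aud_1. Car2, a carbonic anhydrase, stood at 48.0 CPM in mouse 1 and at 6.02 to 13 CPM in the other mice. The calls of Akain1, Tnc, Car2, Mettl25 and Rcsd1 were lost without cells in which 3 or more markers of a glial or vascular list were detected.

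Several of the genes called lower were not seen in Aud_1 at all. Kcnc4, a fast potassium channel subunit of the Kv3 family, had no UMI in any of the 5 Aud_1 sums and a mean of 11.7 CPM in Aud_2 and 51.4 CPM in Aud_3. With counts pooled over mice and a floor of 3 UMIs over all Aud_1 sums (0.336 CPM), Kcnc4 was at least 30.6-fold lower than in Aud_2. Against Aud_3 it was at least 153-fold lower. The bounds here and below describe pooled cells and not each mouse. Over the Aud_2 sums Kcnc4 ranged from 0.886 to 22.2 CPM and Alcam from 0.985 to 7.97 CPM. The adhesion molecule Alcam, likewise without a UMI in Aud_1, was at least 9.39-fold and 267-fold lower. The same bounds were 42.5 and 90.7 for the kinase Pak6, and 17.3 and 84.8 for the glycine receptor subunit Glra3. Myo1e, Hmcn1 and Wscd2 were also without a UMI in Aud_1. Nrgn (neurogranin, which binds calmodulin) was at 0, 1.97, 0.430, 1.17 and 1.51 CPM in Aud_1, 5.31 to 100.4 CPM in Aud_2 and 362 to 598 CPM in Aud_3. Crip2, a LIM-domain protein, was seen in mouse 2 alone, at 0.393 CPM, against 14.2 to 38.1 CPM in Aud_2. The remaining genes of the 15 largest folds down were Trpc4, Pcdh18, Baiap2, Gnb4, Dclk3 and Col12a1, each at a mean of at most 0.387 CPM in Aud_1.

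Several genes of fast firing were higher in Aud_1. The list held 16 genes (some Kv1 and Kv3 channels and beta subunits, axonal sodium channels, neurofilaments and Pvalb) and left out the Kv3 gene Kcnc4, which was called lower. Of the 16, 4 were called higher and none lower, beside 1.27% and 1.82% of all genes, with a median log2 fold of 0.88. Without the fold threshold, 8 of the 16 lay above both other clusters in every mouse, where 1.82% of all genes did so and 2.39% lay below. Kcnab3, a beta subunit of Kv1 channels, was at 161, 98.3, 94.5, 103 and 122 CPM in Aud_1, 7.89 to 44.3 CPM in Aud_2 and 0 to 17.9 CPM in Aud_3 (log2 fold 3.12 ± 0.50). Kcna2, the Kv1.2 pore subunit, was at 397, 428, 429, 417 and 373 CPM against 186 to 311 CPM in Aud_2. Its range in Aud_3, 33.7 to 382 CPM, overlapped with that of Aud_1 (log2 fold 1.06 ± 0.30, which is under the threshold without mouse 2, at 0.85). Kcnab2, another beta subunit, averaged 176 ± 73.7 CPM with a log2 fold of 1.26 ± 0.33. Kcnc1 (Kv3.1), at 439 ± 64.0 CPM, and the sodium channel genes Scn1a and Scn8a were above both clusters in all 5 mice with log2 folds of 0.83 to 0.89, short of the threshold. Neurofilament genes did not move together: the log2 fold of Nefl was -0.42 ± 0.20 and that of Nefh 0.87 ± 0.28, and neither was called.

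Genes of burst firing were called in both directions, where 1.27% of all genes were called higher and 1.82% lower. Of 16 genes of the burst list 3 were called higher, all tied to A-type potassium current: the Kv4 subunits Kcnd2 (464 ± 31.6 CPM) and Kcnd3 (128 ± 36.2 CPM) and the Kv4 partner Kcnip3 (94.8 ± 27.8 CPM). The Kcnd2 call (log2 fold 1.05 ± 0.18) was under the threshold without mouse 2, at 0.98, and without mouse 3, at 0.98. Hcn3, a channel of the hyperpolarization-activated current, was called lower, at 1.74 ± 0.870 CPM against 27.5 CPM in Aud_2. The T-type channel gene Cacna1g averaged 387 ± 68.2 CPM in Aud_1 and 336 CPM in Aud_2 and was above both clusters in 2 of 5 mice, so it was not called. Of 10 genes of calcium extrusion 3 were called higher: the plasma membrane pumps Atp2b1 (log2 fold 1.48 ± 0.14) and Atp2b2 (1.47 ± 0.18), and the exchanger Slc24a2 (1.80 ± 0.11). Atp2b1 was among the most abundant of these, at 3129.7, 3452, 2816, 3147 and 3008 CPM in Aud_1, 1383 to 2005 CPM in Aud_2 and 470.1 to 1218 CPM in Aud_3, with no overlap.

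**Figure D3:**
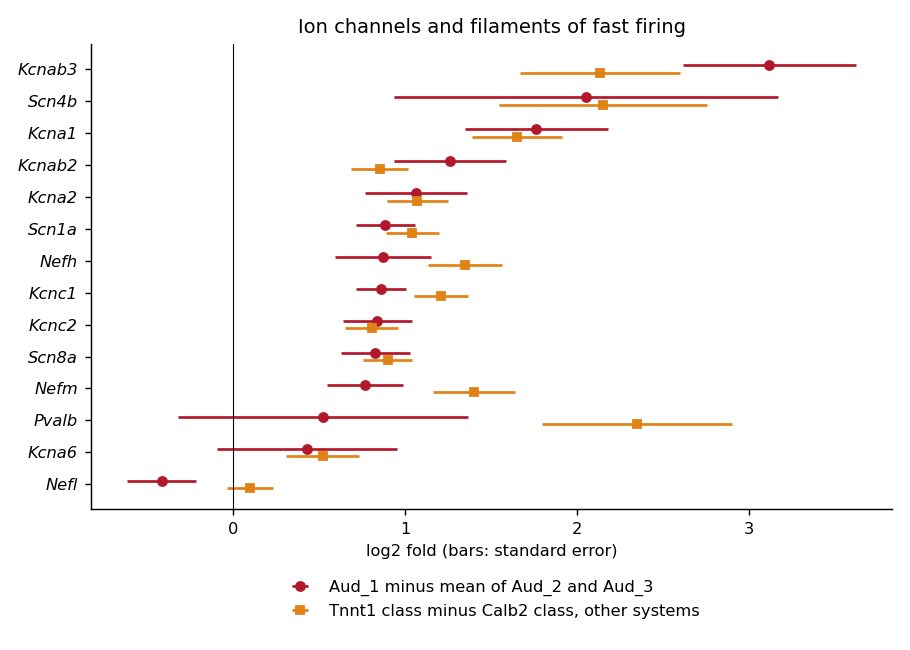
Log2 folds with standard errors of 14 of the 16 genes of fast firing. Circles give Aud_1 minus the mean of Aud_2 and Aud_3 in auditory cells; squares give cells led by Tnnt1 minus cells led by Calb2 in the other systems, which hold no auditory cell. All 14 squares lie above 0, the lowest that of Nefl at 0.10.

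The complexins differed in opposite directions. Of 29 genes of vesicle release tested, 2 were called higher and 3 lower (median log2 fold 0.11), beside 1.27% and 1.82% of all genes. Complexin 1 (Cplx1), which holds vesicles ready for fusion, was at 1441, 1448, 2151, 2283 and 1691 CPM in Aud_1, 493 to 772 CPM in Aud_2 and 72.0 to 334 CPM in Aud_3. Its relative Cplx2 was at 1.20, 0, 4.30, 1.56 and 13.6 CPM in Aud_1 and at 5.26 to 41.1 and 179 to 273 CPM in Aud_2 and Aud_3, and its Aud_1 and Aud_2 ranges overlapped although Aud_1 was the lower in each mouse. Vamp1, the synaptobrevin of fast synapses, was called higher (286 ± 119 CPM, log2 fold 1.36 ± 0.24). Stx1a, a syntaxin of the release site, and the synaptotagmin Syt5 were called lower, with log2 folds of -1.16 ± 0.33 and -2.80 ± 0.41. Among 12 subunits of the GABA-A receptor, Gabra4 and Gabrd, which form extrasynaptic receptors in the thalamus, were called higher (log2 folds 1.90 ± 0.15 and 2.43 ± 0.22), and Gabra3 lower (-3.61 ± 0.60). Gabrd was at 312, 292, 228, 282 and 437 CPM in Aud_1 and at 139 to 228 CPM in Aud_2, so that the ranges touched, with Aud_1 the higher in each mouse. Of 18 NMDA, kainate and metabotropic glutamate receptor genes none was called higher and 2 lower, the NMDA subunit Grin3a (-2.40 ± 0.49) and Grm8 (-5.90 ± 0.92). The AMPA receptor auxiliary gene Cacng3 was called lower as well (-4.54 ± 0.76).

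Several neuropeptides and markers of midline and intralaminar nuclei were called lower in Aud_1, most of them with their highest levels in Aud_3. Of 22 neuropeptide genes 13 passed the filter on low counts, and of these 5 were called lower and none higher, beside 1.82% and 1.27% of all genes. Their median log2 fold was -2.66. A gene can pass this filter on its Aud_3 sums alone, so the median gives no separate support for low levels in Aud_1. Cartpt, for example, was detected in 69.8% of Aud_3 cells, 6.60% of Aud_2 cells and 2.97% of Aud_1 cells. Neurotensin (Nts) was at 0, 0, 11.2, 0.778 and 0 CPM in Aud_1 and at 465 to 1739.5 CPM in Aud_3, while Aud_2 lay at 2.66 to 17.4 CPM and overlapped with Aud_1. Corticotropin-releasing hormone (Crh) was at 0, 2.36, 3.44, 0 and 15.1 CPM against 13.1 to 65.9 CPM in Aud_2 and 159 to 859.8 CPM in Aud_3, lower in each mouse although the Aud_1 and Aud_2 ranges overlapped. The others were Cartpt, Adcyap1 and Nppc, and of these Nppc (C-type natriuretic peptide) had similar levels in the other clusters, with a log2 fold of -2.59 ± 0.37 against Aud_2 and -2.73 ± 0.37 against Aud_3. Of 16 midline and intralaminar markers 13 passed that filter, and of these 4 were called lower, namely Calb2, Nts, Cartpt and Col12a1 (median log2 fold -3.30, with the same limit). Both medians kept their value when genes without a UMI in a cluster were set to the bound that 3 UMIs give. Among thalamic transcription factors 4 of 25 were called higher and 2 lower. Rora, an orphan nuclear receptor of relay neurons, was at 3061, 2786, 2500.3, 2500.3 and 2524 CPM in Aud_1, 1568 to 2059 CPM in Aud_2 and 209.8 to 582 CPM in Aud_3. Zic1, Mef2c and Hlf were called higher with log2 folds of 1.30, 1.06 and 1.36. The call of Mef2c was lost without mouse 2 (log2 fold 0.96), that of Zic1 without batch 2, and those of Zic1 and Hlf without cells that bore glial or vascular markers. Lhx9 was called lower (-1.50 ± 0.26), as was Etv1, at 52.3 ± 23.4 CPM against 115 and 341 CPM in Aud_2 and Aud_3. Of 22 genes that bind calcium or calmodulin or act with them, Pcp4 (3348 ± 1476 CPM), Pcp4l1 and the kinase Camk4 were called higher, and Calb2, Necab1, Hpcal4 and Nrgn lower. Of 27 modulatory receptors, the adrenergic receptors Adra1b and Adrb1 were called higher, with 94.2 ± 55.9 CPM for Adrb1. The serotonin receptor Htr2c, the histamine receptor Hrh1 and Adcyap1r1 were called lower, with 27.2 ± 13.9 CPM for Htr2c against 193 CPM in Aud_2.

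Few markers of other cells and of metabolism were called beside these groups. The myelin gene Mbp was called lower, at a mean of 13.3 CPM in Aud_1 and of 27.6 CPM in Aud_2, and without cells in which 3 or more markers of a glial or vascular list were detected 139 genes were called higher and 199 lower. Of the genes given above, Kcnd3, Camk4, Adcyap1 and Adcyap1r1 also lost their call without these cells. Lactate dehydrogenase A (Ldha) was the single glycolysis gene of 16 that was called, at 69.6, 22.4, 53.3, 73.5 and 33.1 CPM in Aud_1 against 161 to 238 CPM in Aud_2 and 612 to 1079 CPM in Aud_3. None of 79 nuclear genes of the respiratory chain and 1 of 79 ribosomal protein genes was called, with median log2 folds of 0.02 and -0.41. Over all genes 1.27% were called higher and 1.82% lower. No immediate early gene of 14 was called.

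Genes of wiring and of the cell surface were described beside 1.27% of all genes called higher and 1.82% lower. Of 45 wiring proteins tested 1 was lower, a share near that of all genes: the ephrin Efnb2 at 0.164 ± 0.225 CPM against 17.1 CPM in Aud_2 and 23.2 CPM in Aud_3, and none was higher. Of 20 cadherins and protocadherins Pcdh19 was lower (log2 fold -4.33 ± 0.53). Of 20 synapse organizers the neurexin Nrxn3 was higher (1.25 ± 0.20) and the cerebellin Cbln4 lower (-3.97 ± 0.87). Hapln4, a link protein of perineuronal nets, was at 173, 172, 128, 193 and 104 CPM in Aud_1, 45.2 to 77.3 CPM in Aud_2 and 11.2 to 78.2 CPM in Aud_3. Of 8 sodium pump genes 2 were lower, among them Fxyd6, a regulatory subunit (-6.41 ± 0.74). Among regulators of G-protein signals Rgs16 was higher (1.21 ± 0.21), and Rgs2 and Rgs9 were lower (-1.85 ± 0.32 and -4.59 ± 1.04).

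The genes that set Aud_1 apart were followed into cells that its clustering had not used. For this, motor, prefrontal, somatosensory and visual cells were sorted by whichever of Tnnt1, Necab1 and Calb2 led in them and summed per mouse. Cells led by Tnnt1 were compared with cells led by Calb2 within the same mouse, and the 3 leading genes were not counted. The fit held 43 sums, those of cells led by Necab1 among them. No somatosensory mouse had a Calb2 sum, and prefrontal mouse 1 had no Tnnt1 sum. Direct pairs of both classes thus came from motor, visual and the other prefrontal mice. No auditory cell took part in this comparison. Of 18996 genes 694 were higher (3.65%) and 604 lower (3.18%) in the Tnnt1 class at an adjusted p under 0.05 (edgeR's quasi-likelihood test with Benjamini-Hochberg adjustment). Of the 156 further genes called higher in Aud_1, 86 (55.1%) were higher in the Tnnt1 class and 0 were lower, and 151 of 156 had a positive fold. Of the 223 genes called lower in Aud_1, 112 (50.2%) were lower in the Tnnt1 class and 0 were higher. These genes made up 12.4% and 18.5% of the 2 lists of the other systems. The median log2 folds of the groups were 0.76 and -1.09, beside 0.04 over all genes. Over 12343 genes the folds of both comparisons had a Pearson's r of 0.494 and a Spearman's rho of 0.394, given as a description across genes that are not independent replicates.

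Among the 30 genes with the largest folds in Aud_1, 6 of 14 of the higher (Tnnt1 left aside) and 10 of 15 of the lower passed in the same direction. Smpx had a log2 fold of 2.81 ± 0.71 (adjusted p = 0.00774) in the other systems, Gprc5b of 1.74 ± 0.38 (adjusted p = 0.00236) and Slc9a3r1 of 1.64 ± 0.34 (adjusted p = 0.00156). Prkcd rose by a log2 fold of 1.64 ± 0.27 (adjusted p = 7.62e-05). Kcnc4 fell, with a log2 fold of -6.20 ± 1.04 (adjusted p = 6.55e-05), as did Crip2 at -3.30 ± 0.54 and Nrgn at -4.80 ± 0.95. Others of these genes did not pass: Lama5 had a log2 fold of 0.21 ± 0.55, Rcsd1 of 0.29 ± 0.32 and Trpc4 of 0.46 ± 1.02, with adjusted p of 0.907, 0.734 and 0.887. Mettl25 had a fold of the other sign, -1.12 ± 0.59 (adjusted p = 0.33).

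By group, 14 of the 16 listed genes of fast firing were higher in the Tnnt1 class of the other systems and none was lower, beside Kcnc4, which is not in the list and fell. Over all genes 3.65% were higher and 3.18% lower. Kcna1 rose by a log2 fold of 1.65 ± 0.26 (adjusted p = 4.73e-05), Kcnc1 by 1.21 ± 0.16 (adjusted p = 1.97e-06) and Pvalb by 2.35 ± 0.55 (adjusted p = 0.00442). Kcna6 and Nefl were the exceptions, with log2 folds of 0.52 ± 0.21 and 0.10 ± 0.14. Cplx1 rose by 1.48 ± 0.22 and Cplx2 fell, at -4.34 ± 0.64 (adjusted p = 2.36e-05 and 6.24e-06), and Rora rose by 1.09 ± 0.11 (adjusted p = 1.68e-08). Of 19 neuropeptide genes 1 was lower, Nppc at -2.76 ± 0.62 (adjusted p = 0.00267), and 1 was higher, Npy at 2.98 ± 0.81 (adjusted p = 0.0162). Nts and Crh had log2 folds of -0.36 ± 1.59 and 0.79 ± 1.24 (adjusted p = 0.948 and 0.831). Htr2c, called lower in Aud_1, had a log2 fold of -0.66 ± 0.42 there (adjusted p = 0.461). Of 80 ribosomal protein genes 32 were lower and none higher, with a median log2 fold of -0.35. The myelin gene Mbp was lower there too, at -2.67 ± 0.69 (adjusted p = 0.0115), and its part in these differences was not tested.

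**Figure D4:**
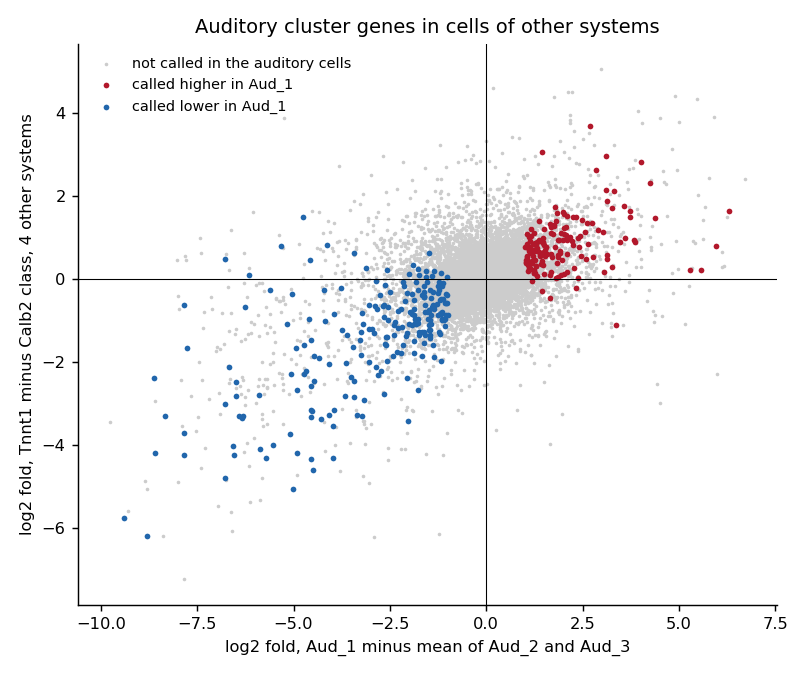
Each point is a gene. The horizontal axis gives the log2 fold of Aud_1 minus the mean of Aud_2 and Aud_3. The vertical axis gives that of cells led by Tnnt1 minus cells led by Calb2 in the other systems, where no somatosensory mouse had a Calb2 sum. Genes called higher in Aud_1 (red) lie mostly above 0 on the vertical axis, with 151 of 156 there, and genes called lower (blue) mostly below 0.

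Aud_1 was then set beside the Tnnt1-rich clusters of other systems, to see where it differed from relay cells of the motor, somatosensory and visual systems. Tnnt1 chose these clusters and is given as a level: it was 961 ± 81.4 CPM in visual cluster 1 (SD, n = 4 mice), 626 ± 169.9 in Aud_1 (n = 5), 525 ± 44.2 in somatosensory cluster 1 (n = 3) and 335 ± 166 in motor cluster 2 (n = 4). The Aud_1 range of 339.7 to 751 CPM overlapped with the motor and somatosensory ranges and lay below the visual one. Of 13602 genes, 81 were higher in Aud_1 (0.596%) and 58 lower (0.426%) than the mean of the other clusters, by edgeR's quasi-likelihood test with batch as a covariate. By system, 18 genes were higher and 38 lower than in motor cluster 2 (0.132% and 0.279%). Against somatosensory cluster 1 the counts were 132 and 124 (0.97% and 0.912%), and against visual cluster 1 they were 2 and 2 (0.0147% each). Motor mouse 2 held 1 cell of its cluster and was left out. The somatosensory sums were all in batch 2 and the visual sums all in batch 3, which held 1 Aud_1 sum. Fits without batch 2 or within batch 3 thus held no somatosensory sum. Those without batch 3 or within batch 2 held no visual sum. Their counts, given below, belong to comparisons with fewer clusters and not to the one above.

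These counts rested on few mice. Without auditory mouse 5 they fell to 8 higher and 7 lower. Without auditory mouse 3 they were 47 and 28, and without auditory mouse 4 they were 52 and 30. Without auditory mouse 1 or 2 the lower count rose to 89 or 88. Without batch 2, Aud_1 was set against the motor and visual clusters only. In that fit edgeR called 0 (1322 genes at an unadjusted p under 0.05), while DESeq2 called 88 higher and 145 lower. With all batches kept, the lower count was 35 without motor mouse 1, 109 without motor mouse 3 and 38 without somatosensory mouse 2. Without visual mouse 1, which shared its identifier with auditory mouse 5, the counts were 62 higher and 43 lower. Fitted within batch 2 alone, 12 genes were higher and 6 lower. Within batch 3 the counts by edgeR were 0 and 2 (1775 genes at an unadjusted p under 0.05), and within batch 1, with 2 Aud_1 sums and 1 motor sum, edgeR called 0 (466 genes at an unadjusted p under 0.05).

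Most genes with the largest folds up were low in the other relay clusters. Most were not particular to Aud_1 among the auditory clusters. Mean levels in Aud_2 and Aud_3 were 115.5 and 177.4 CPM for Ldb2 and 69.2 and 79.6 CPM for Gabrg1. They were 75.6 and 146.7 CPM for Fam19a1 and 125.5 and 224.8 CPM for Sphkap. Pde1c was at 43.1 CPM in Aud_2 and 0.502 CPM in Aud_3, and Vmn2r85 was low in both, at 0.509 and 0.276 CPM. Pde1c, a phosphodiesterase switched on by calcium and calmodulin, was at 50.4, 36.2, 36.1, 41.2 and 52.7 CPM in Aud_1 and at 0 to 1.46 CPM in the 11 other sums, without overlap (log2 fold 6.21 ± 0.80, adjusted p = 4.9e-05). Fam19a1, a secreted protein, was at 21.6, 98.6, 128, 84.0 and 73.8 CPM in Aud_1, 0 to 0.672 CPM in the motor and 0 to 1.49 CPM in the somatosensory cluster. In the visual cluster Fam19a1 lay at 14.1 to 51.1 CPM and overlapped with Aud_1 (log2 fold over all 5.28 ± 0.58, adjusted p = 4.9e-05). Sphkap, an anchor of protein kinase A, was at 88.8, 93.9, 149, 121 and 184 CPM against 0.124 to 60.1 CPM elsewhere (log2 fold 5.17 ± 0.70, adjusted p = 0.000369). Gabrg1, the gamma-1 subunit of the GABA-A receptor, was at 26.4, 35.4, 21.9, 15.6 and 31.6 CPM. It had no UMI in the visual cluster, 0 to 0.124 CPM in the somatosensory and 0.672, 1.90, 0 and 15.2 CPM in the 4 motor sums, so that motor mouse 5 alone came near Aud_1. Ldb2, a cofactor of LIM-domain transcription factors, and Tcerg1l had means of 20.2 and 47.0 CPM in Aud_1. Trbc2 and Vmn2r85 varied within Aud_1, at 28.8, 11.8, 10.3, 0.389 and 45.2 CPM and at 0, 6.29, 15.9, 0 and 46.7 CPM in mice 1 to 5. Pth2 and its receptor gene Pth2r, which lie on different chromosomes, had the same count in 116 of the 127 cells with a UMI of either, so their values cannot be taken as separate measurements. Without auditory mouse 5, none of these 10 genes passed.

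Calb1, Calb2, Necab1 and Scg2 were also higher in Aud_1. Calbindin (Calb1) was at 622, 795, 562, 705 and 613 CPM in Aud_1 and at 74.3 to 416 CPM in the other sums, without overlap (log2 fold 1.76 ± 0.29, adjusted p = 0.00409, lost without auditory mouse 5). Secretogranin 2 (Scg2), a protein of dense-core vesicles, was at 2424, 1977, 1151, 1170.4 and 1318 CPM against 359.8 to 701 CPM (log2 fold 1.47 ± 0.19, adjusted p = 0.000369) and passed in each fit that left out 1 mouse. Calb2 was at 152, 416, 121, 47.8 and 176 CPM in Aud_1, at 6.64 to 22.1 CPM in the motor, 0 to 0.622 CPM in the somatosensory and 0 to 116 CPM in the visual cluster (log2 fold 4.42 ± 0.62, adjusted p = 0.000571). This call was lost without auditory mouse 5, and the ranges of Aud_1 and the visual cluster overlapped. Necab1 had a log2 fold of 2.66 ± 0.29 (adjusted p = 5.35e-05), with 0.352 to 1.24 CPM in the somatosensory cluster, and overlapped between Aud_1 and the motor (73.0 to 152 CPM) and visual (43.6 to 121 CPM) clusters. With somatosensory cluster 2 in place of cluster 1 the calls of Necab1 and Calb1 were lost, with log2 folds of 1.39 and 1.27. Ntsr1, the neurotensin receptor, was at 10.8, 0.786, 11.2, 6.22 and 19.6 CPM in Aud_1 and without a UMI in the 11 other sums (adjusted p = 0.0138, lost without auditory mouse 3 and without auditory mouse 5). Among further genes of the lists, the kainate receptor subunit Grik3 was higher with a log2 fold of 3.39 ± 0.61 (adjusted p = 0.00522), the guidance signal Sema3e with 4.11 ± 0.84 (adjusted p = 0.0231; it had no UMI in Aud_1 of mouse 1 and overlapped with the motor cluster) and the transcription factor Bcl11a with 1.80 ± 0.33 (adjusted p = 0.00954). These 3 calls were lost without auditory mouse 5 and with somatosensory cluster 2. That of Bcl11a was also lost without auditory mouse 4, and that of Sema3e held in 11 of the 17 fits that left out 1 mouse.

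Neurofilaments, Pvalb and Prkcd were lower in Aud_1 than in these relay clusters. Of the 16 genes of fast firing 5 were lower and none higher (Nefl, Nefm, Nefh, Pvalb and Scn4b), beside 0.426% and 0.596% of all genes, with a median log2 fold of -0.45. All 5 calls were lost when somatosensory cluster 2 took the place of cluster 1, and each but that of Pvalb was lost without auditory mouse 5. The calls of Nefl and Scn4b held in 8 and 5 of the 17 fits that left out 1 mouse. Parvalbumin (Pvalb), a fast calcium buffer, was at 25.2, 23.6, 7.31, 10.9 and 3.01 CPM in Aud_1, 0.491 to 16.1 CPM in the motor, 135 to 225 CPM in the somatosensory and 61.4 to 89.2 CPM in the visual cluster. Its log2 fold was -3.08 ± 0.36 over all (adjusted p = 5.35e-05, also lost with no batch term) and 0.58 ± 0.40 against the motor cluster (adjusted p = 0.669). Against the somatosensory and visual clusters it was -4.32 ± 0.44 and -5.50 ± 0.59 (adjusted p = 2.78e-05 and 0.000123). These folds are fitted with the batch term and are not ratios of the mean levels. All visual sums were in batch 3, where the 1 Aud_1 sum was that of mouse 5, at 3.01 CPM. Nefm, at 487, 898, 696, 831 and 727 CPM in Aud_1, was at 2651 to 3554 CPM in the somatosensory and 1071 to 1740.3 CPM in the visual cluster, and overlapped with the motor cluster at 646 to 1037 CPM (log2 fold -1.12 ± 0.17, adjusted p = 0.00141). Prkcd, which marked Aud_1 among auditory cells, was at 2227 to 3723 CPM in the other relay clusters, above each of the 5 Aud_1 sums (log2 fold -0.87 ± 0.11, adjusted p = 0.000216), and passed in each fit that left out 1 mouse.

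Of the largest folds down, Ccdc141, a coiled-coil protein, was at 0, 0.393, 1.29, 1.56 and 4.52 CPM in Aud_1 and 9.43 to 102 CPM elsewhere, without overlap (log2 fold -5.15 ± 0.58, adjusted p = 4.9e-05). Fam19a2, a relative of Fam19a1, was at 0, 0, 3.01, 1.17 and 3.01 CPM in Aud_1 and 8.61 to 74.0 CPM elsewhere, without overlap (log2 fold -4.39 ± 0.71, adjusted p = 0.0017). Both Ccdc141 and Fam19a2 passed in each fit that left out 1 mouse. Other auditory cells held little of them too: Ccdc141 was detected in 2.83% of Aud_2 and 3.17% of Aud_3 cells, and Fam19a2 in 4.72% and 6.35%. Gsg1l averaged 0.171 and 0.284 CPM in Aud_2 and Aud_3, while Cald1 averaged 12.2 and 29.1 CPM there. Wnt9b, a secreted signal, was at 8.40, 0, 0, 6.22 and 1.51 CPM against 19.5 to 110 CPM, and the opioid-like peptide gene Pnoc at 0, 14.1, 0, 0.389 and 0 CPM against 15.3 to 64.4 CPM. Cald1, Zfp385c, Carmil1, Pstpip1, Sh3bp4 and the AMPA receptor auxiliary gene Gsg1l made up the rest, with log2 folds of -6.88 to -3.77. Of the 17 fits that left out 1 mouse, Zfp385c passed in 5, Cald1 in 9 and Pstpip1 in 10. Gsg1l and Wnt9b passed in 11, Pnoc in 14, and Carmil1 and Sh3bp4 in 15. Gsg1l fell to 0 CPM in the lowest motor and somatosensory sums, and so overlapped with Aud_1. Another AMPA receptor partner, Cnih3, was lower as well, at 1.20, 20.8, 8.60, 1.94 and 13.6 CPM against 18.7 to 225 CPM (log2 fold -3.69 ± 0.58, adjusted p = 0.00258). The nuclear receptor gene Nr2f2 had a log2 fold of -2.64 ± 0.56 (adjusted p = 0.023, lost without auditory mouse 5, without motor mouse 1 and with somatosensory cluster 2). Rgs4, a brake on G-protein signals, was at 21.6, 269, 193, 175 and 211 CPM in Aud_1 and 582 to 1272 CPM elsewhere (log2 fold -2.24 ± 0.34, adjusted p = 0.00166, lost without auditory mouse 5).

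**Figure D5:**
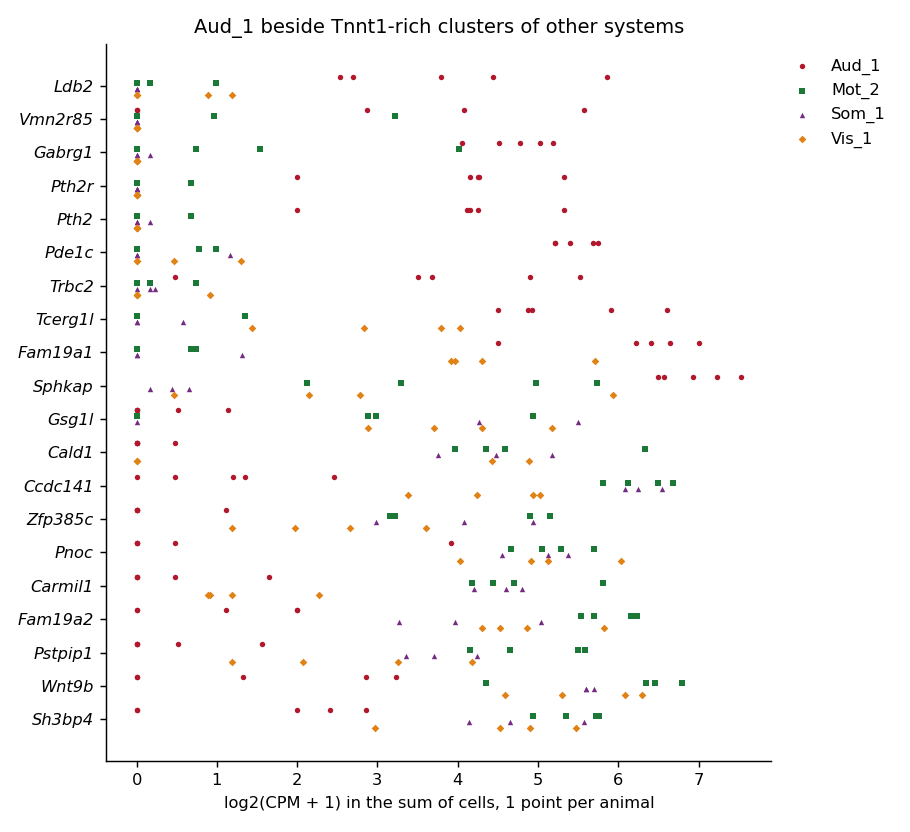
Log2(CPM + 1) of the 20 genes with the largest folds between Aud_1 and the Tnnt1-rich clusters of the motor (Mot_2), somatosensory (Som_1) and visual (Vis_1) systems, with 1 point per mouse. In the upper 10 genes the circles of Aud_1 lie mostly to the right of the other symbols, and in the lower 10 mostly to the left. Fam19a1 overlaps with visual sums, and Gabrg1 of motor mouse 5 (15.2 CPM) lies just under the lowest Aud_1 sum (15.6 CPM).

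Genes that marked Aud_1 among auditory cells were followed into the comparison of relay clusters, in which 0.596% of all genes were higher and 0.426% lower. Both comparisons hold the same Aud_1 sums. Of the 156 genes called higher, 5 were higher and 4 lower in that comparison, and of 187 called lower that could be tested, 8 were higher and 1 was lower. As a whole profile, over 16902 genes on the log2(CPM + 1) scale, Aud_1 was most like Aud_2 (Pearson's r 0.954 across genes), followed by visual cluster 2 (0.953), motor cluster 3 (0.950), visual cluster 1 and motor cluster 2 (both 0.949). Aud_3 was the least like it of the 16 other clusters, at 0.891. These values are descriptions, since clusters of 1 system share mice and libraries.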

How the data were processed

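The deposited files held a table of UMI counts per gene and cell and a table of cells with the authors' clusters, system, animal identifier and batch. Cutadapt 1.16, Picard 1.12, STAR 2.5.3 and the mouse build mm10 are named in the submitters' processing notes; the annotation and how reads were counted are not given in the sources used here. The clusters, the marker genes and the gene lists were chosen with earlier results of these data known.

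Counts were summed per animal, system and cluster, sums of at least 5 cells were kept, and each sum was 1 replicate. Mice of 1 sort day share handling, so the spread between them may be partly technical. Models were fitted in R 4.3.3 with edgeR 4.0.16 (scaling by TMM, filterByExpr, trended dispersion, quasi-likelihood). The comparison of auditory clusters had the mouse as a block and gave log2 folds and standard errors only. Relay clusters of other systems were compared with batch as a covariate, and classes by leading gene with mouse and system as a block, with Benjamini-Hochberg adjustment at 0.05 over all genes tested. The genes named were the 15 largest folds in each direction among auditory clusters and the 10 largest between systems, with a mean of at least 10 CPM and a gene name, plus members of the lists. The edgeR fits of the gene comparisons were checked on simulated counts. Alternatives were DESeq2 1.42.0, other scaling, filters, sums of at least 10 cells, other models, leaving out each mouse or batch, and leaving out cells with glial markers or with the authors' mark. Fits within a single batch were chosen after seeing the data. No doublet caller was run, since cells were picked by hand. A few called genes are not reported here.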

Additional observations from a re-analysis of the deposited data

Results flagged for a closer look

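In groups of 4 or 5 mice, a sum was listed where its gap to the nearest other sum took an unusually large part of the group's range (Dixon's test at 95%). Of 70 groups of named genes checked, 14 held such a sum. A further 25 groups were not considered because their highest sum held at most 3 UMIs. The test's rate of about 1 in 20 holds for normally distributed values. Many of these genes had few UMIs in sums of unequal depth, so 14 of 70 cannot be read as an excess. In Aud_1, Car2 was at 48.0 CPM in mouse 1 (6.02 to 13 in the others), Pnoc at 14.1 CPM in mouse 2 (0 to 0.389), Carmil1 at 2.15 CPM in mouse 3 (0 to 0.393) and Pstpip1 at 1.94 CPM in mouse 4 (0 to 0.430). In motor cluster 2, motor mouse 4 held 8.35 CPM of Vmn2r85 (0 to 0.948 in the others), 79.6 CPM of Cald1 (14.7 to 23.1) and 0 CPM of Fam19a1 (0.593 to 0.672). Motor mouse 5 held 15.2 CPM of Gabrg1 (0 to 1.90). Motor mouse 3 held 0.593 CPM of both Pth2 and Pth2r and 1.54 CPM of Tcerg1l, none of which had a UMI in the other 3 motor sums. The sum of motor mouse 3 was the deepest, with 8438449 UMIs against 1488163 to 2036321 in the other motor sums. The part of depth in these flags was not tested. In visual cluster 1, visual mouse 3 held 51.1 CPM of Fam19a1 (14.1 to 18.7) and 60.1 CPM of Sphkap (0.381 to 5.86), and visual mouse 4 held 3.81 CPM of Carmil1 (0.857 to 1.28).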

How the results depend on the processing

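Among auditory clusters, leaving out 1 mouse gave 233 to 306 genes higher and 280 to 372 lower, and these counts rise because fewer mice have to show the direction. By the same construction they were 478 and 437 with sums of at least 10 cells, 500 and 479 without batch 1, 404 and 704 without batch 2, and 241 higher without batch 3. A fold of at least 4 left 61 and 129. Between Aud_1 and relay clusters of other systems, the counts were 199 higher and 240 lower by DESeq2, 161 and 157 with no filter, 174 and 111 with no batch term, and 34 and 37 with somatosensory cluster 2. They were 126 higher with 1 dispersion for all genes and 103 lower with sums of at least 10 cells. Leaving out 1 mouse gave 8 to 112 higher and 7 to 109 lower. Without batch 2, which left no somatosensory sum, edgeR called 0 in each direction. Without batch 3, which left no visual sum, it called 16 and 5. Within batch 2 it called 12 and 6, and within batch 3 it called 0 and 2. Of the 20 genes named there, 2 passed without auditory mouse 5, 12 without auditory mouse 3 and 0 of 19 without batch 2. In cells led by Tnnt1, the lower count was 959 by DESeq2 and 1090 with 1 dispersion. The ratio of RNA to spike-in reversed, to -0.042, against Aud_3 alone. The cause of these changes was not tested, beyond those set by the construction. The smallest Aud_1 sum held 6 cells, so genes of few UMIs were limited by depth.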
